A study of Mus musculus with 6 samples.

Results

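Impact, Copg2, Gnas and Zim1 are 4 imprinted genes, and they were measured here in mouse embryos that arose without sperm and so hold no paternal genome. The genes were chosen with earlier results of these arrays known. Their probes were taken by annotation: each lists exactly 1 gene symbol, and that symbol is one of these names. This gave 4 genes of the 4797 that have such a probe, through 9 probes of the 22132 in the deposited table: 5 of Impact, 1 of Copg2, 2 of Gnas and 1 of Zim1. A further 6 probes list one of these names beside another gene (3 for Copg2 and 1 for each of the others) and were not used. All 9 probes had values that could be tested.

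In an imprinted gene the copies inherited from the mother and the father carry different marks, mainly DNA methylation at CpG pairs, and in some or all tissues only one copy is transcribed. Impact is transcribed from the paternal copy in mouse, Zim1 from the maternal copy in the embryo, and Copg2 mainly from the maternal copy in some tissues. Gnas is a compound locus: its main product, the G protein subunit Gs alpha, comes from both copies in most tissues and from the maternal copy in a few, while other transcripts of the locus are maternal (Nesp) or paternal (the extra-large form, XL alpha s). An embryo with maternal genomes alone thus has no copy of Impact of the kind that is normally transcribed, and both of its Zim1 and Copg2 copies are of that kind.

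Unfertilised metaphase II eggs were started into development in one of 2 ways, with cycloheximide, an inhibitor of protein synthesis, or with strontium chloride, which drives calcium release in the egg. Both groups also received cytochalasin D, which stops extrusion of the second polar body and so leaves a diploid embryo with maternal chromosomes alone. After 60 h of culture in KSOM medium, the mRNA of 25 embryo equivalents went through 2 rounds of amplification, was labelled with Cy3 and was hybridised on 2-colour Agilent arrays, 3 per group, against the same commercial reference RNA (Universal Mouse Reference RNA, a pool from cell lines) amplified in 1 round and labelled with Cy5. The sources used here do not give the strain and age of the egg donors. Nor do they state that the 3 arrays of a group were separate cultures, so the p-values reflect the spread among these samples alone, and that spread may be technical.

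Values are log2 ratios of embryo over reference. The sign rests on the dyes and on the scanner software's convention of red over green and is therefore the likely direction, not a stated one; were it the opposite, every sign below would turn. A ratio is not an abundance: spot intensities were not used here, so a ratio near 0 can come from similar RNA levels or from a probe that is dim in both channels. All arrays had the same dye orientation, so for any one probe a dye effect, or an effect of the additional amplification round, and a difference in level cannot be told apart. Deposited ratios were limited to 100-fold, which touched no probe of these genes. The array medians lay between 0.12 and 0.21, so a probe at the middle of its array was slightly above 0.

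Of the embryo and oocyte markers, 10 of 11 measured genes had a mean ratio above 0, where 58% of all genes did, and 7 passed the test against 0 from above, among them Dppa4 at 2.71 over 6 arrays and Tdgf1, whose ratio reached the 100-fold limit on every array. All 6 measured fibroblast and stroma markers were below 0 on gene averages and passed, although the 2 probes of Fn1 were at -5.25 and 0.31. Over all genes 39.3% passed above 0 and 26.3% below. Of the other markers, 2 of 4 measured for cumulus and granulosa cells passed below 0 (Gja1 and Inhbb), and Cyp11a1 and Ptgs2 did not pass. The 2 probes of Cyp11a1 were at -0.88 and 0.62, and 4 of their values were exactly 0. Per array, the median of the 4 cumulus and granulosa genes ran from -1.05 to -0.46 after cycloheximide and from -0.91 to -0.80 after strontium, so these ranges overlapped. The testis gene Prm1 was at -0.40 and Tnp1 at 1.36, and 2 of 4 blood genes passed, S100a8 above and Ptprc below 0. Array 3 of cycloheximide stood apart from its group: over all probes its correlation was 0.762 and 0.810 with the other cycloheximide arrays but 0.909 with strontium array 3. Values without it are given where they matter.

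The promoters of these genes are shown because CpG pairs are the letters on which imprinting marks are set, and because Gnas starts at several places. Methylation was not measured here, so whether these windows carry such marks was not tested. RefSeq (GRCm38.p6) windows of 300 bases, from 250 before to 50 after a start, were found for 3 of the 4 genes, and none for Impact. Capitals mark CG pairs, and each sequence reads 5′ to 3′ on the strand of the gene.
Copg2, chr6:30896745-30897044, minus strand: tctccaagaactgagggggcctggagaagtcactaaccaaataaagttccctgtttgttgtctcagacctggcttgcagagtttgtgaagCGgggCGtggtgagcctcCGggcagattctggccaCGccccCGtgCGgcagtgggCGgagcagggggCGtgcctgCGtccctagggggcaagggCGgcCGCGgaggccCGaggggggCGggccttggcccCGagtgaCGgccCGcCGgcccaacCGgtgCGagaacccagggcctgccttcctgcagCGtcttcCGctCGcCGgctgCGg
Zim1, chr7:6696383-6696682, minus strand: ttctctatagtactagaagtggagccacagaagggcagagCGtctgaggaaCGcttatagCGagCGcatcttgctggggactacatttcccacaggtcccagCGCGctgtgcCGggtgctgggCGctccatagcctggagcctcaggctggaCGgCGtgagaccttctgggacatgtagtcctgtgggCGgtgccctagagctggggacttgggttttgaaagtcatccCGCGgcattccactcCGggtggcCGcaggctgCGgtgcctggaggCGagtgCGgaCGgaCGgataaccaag
Gnas, start farthest upstream, chr2:174284070-174284369, plus strand: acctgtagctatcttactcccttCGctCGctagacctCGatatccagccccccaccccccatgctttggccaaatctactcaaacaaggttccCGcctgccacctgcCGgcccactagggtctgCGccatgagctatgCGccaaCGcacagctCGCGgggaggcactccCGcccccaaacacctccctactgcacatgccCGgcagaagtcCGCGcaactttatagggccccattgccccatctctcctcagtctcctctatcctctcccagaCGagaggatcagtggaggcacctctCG
Gnas, start farthest downstream, chr2:174329756-174330055, plus strand: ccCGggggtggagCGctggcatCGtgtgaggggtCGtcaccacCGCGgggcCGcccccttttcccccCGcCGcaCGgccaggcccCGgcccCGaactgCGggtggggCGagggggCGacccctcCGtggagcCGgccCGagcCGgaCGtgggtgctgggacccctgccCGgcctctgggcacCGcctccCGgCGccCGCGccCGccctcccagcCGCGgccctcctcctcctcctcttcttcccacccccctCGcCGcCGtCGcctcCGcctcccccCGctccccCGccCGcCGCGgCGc

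The window of Copg2 held 25 CG pairs, that of Zim1 20, and the Gnas windows 16 at the upstream end and 40 at the downstream end, against a median of 7 over 32851 windows of this length. The Gnas start farthest downstream lay above 96.1% of all windows by this count. The letters TGCCGC, the core recognised by the imprint-maintaining protein Zfp57 when its CpG is methylated, were searched on both strands: the Copg2 and the Zim1 window each held 1, the 4 Gnas windows 0, and 11.6% of all windows held at least 1. The outermost Gnas windows start 45686 bases apart, and 4 windows (2 of them overlapping) carry the name Gnas. The annotation gives both Gnas probes the same transcript records, so it does not say which of the Gnas transcripts a probe reads. In RefSeq the body of Copg2 overlaps that of Mest, a paternally expressed neighbour, and the files do not say which strand a probe reads. The Gnas body likewise overlaps the antisense RNA of that locus.

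Against the reference, 5 of the 9 probes were above 0, 3 were below 0 and 1 did not pass (limma, adjusted p under 0.05 over all probes). Over all 21921 probes tested, 40.3% passed above 0 and 26.8% below 0, so passing in itself does not set a probe apart. Each array holds the RNA of many embryos together, so fewer cells of a type and less RNA per cell cannot be told apart. The test leaves out the spread of the reference RNA, which is the same on every array. With array medians subtracted, which lowered the median of all probes by 0.17, 6 of the 9 passed: 3 above, 30.8% of all probes doing so, and 3 below, with 31.5% of all probes.

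**Figure D1:**
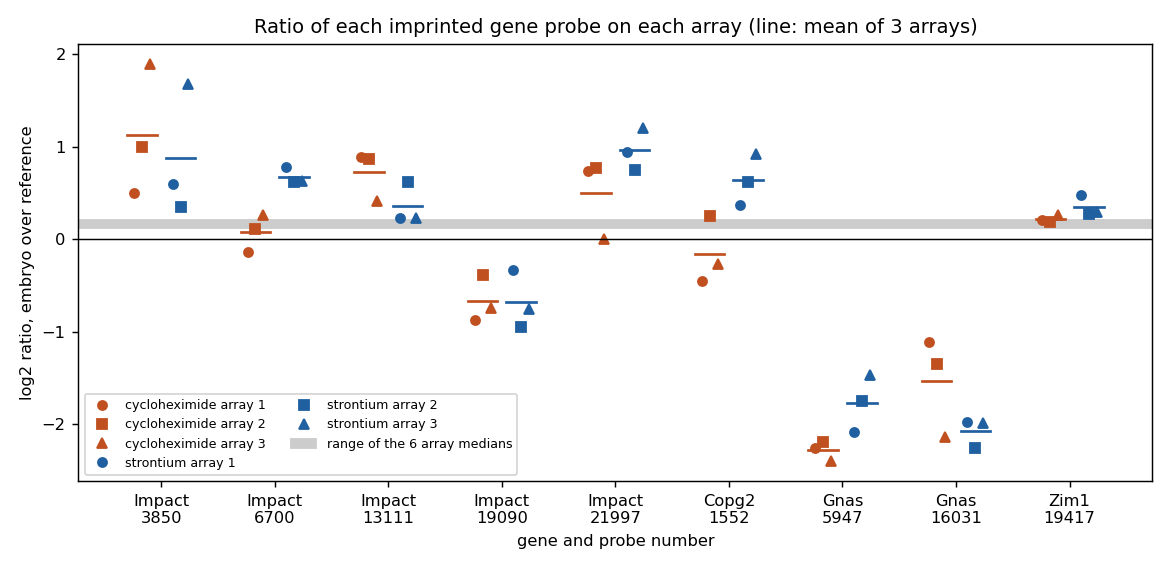
Log2 ratio of embryo over reference (vertical axis) for each of the 9 probes (horizontal axis) on each of the 6 arrays, with a line at the mean of 3 arrays per group and a grey band over the range of the array medians (0.12 to 0.21). Both Gnas probes lie at or below -1.11 on every array and Impact probe 19090 lies below 0 on every array, while the Zim1 points sit within or above the band.

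Impact encodes a protein that binds the activator GCN1 and so restrains GCN2, the kinase that slows translation when amino acids run short. It is the paternally expressed gene of the 4, and 4 of its 5 probes had ratios that passed above 0 while the remaining one passed below 0. Probe 3850 was the highest, at 0.51, 1.00 and 1.90 on arrays 1 to 3 after cycloheximide and at 0.60, 0.35 and 1.68 after strontium. It was above 0 on 6 of 6 arrays, with both arrays numbered 3 well above the others, and the groups overlapped. Its group means were 1.13 ± 0.71 and 0.88 ± 0.71 (SD, n = 3 arrays each), or 2.19-fold and 1.84-fold over the reference, with a limma adjusted p of 0.0115 against 0.

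Probe 21997 was at 0.74, 0.77 and exactly 0 after cycloheximide and at 0.94, 0.75 and 1.20 after strontium. The value of exactly 0, on array 3 of cycloheximide, is taken as a ratio that was not set, although it stays in the fit. The mean over 6 arrays was 0.73 (limma adjusted p = 0.00398), and all 5 set values lay above 0.

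Probe 13111 was at 0.89, 0.87 and 0.41 after cycloheximide and at 0.23, 0.62 and 0.23 after strontium, above 0 on 6 of 6 arrays and above the array median on 6 of 6. Probe 6700 was at -0.14, 0.11 and 0.27 after cycloheximide and at 0.78, 0.62 and 0.63 after strontium. For probe 6700 the strontium arrays all lay above the cycloheximide arrays, and the probe was above the array median on 4 of 6 arrays. The limma adjusted p against 0 was 0.00576 for probe 13111 and 0.0109 for probe 6700, and 0.108 for the latter with array medians subtracted.

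Probe 19090 went the opposite way from the other Impact probes. It was at -0.87, -0.38 and -0.74 after cycloheximide and at -0.33, -0.95 and -0.76 after strontium, with group means of -0.67 ± 0.25 and -0.68 ± 0.32 (SD, n = 3 arrays each; limma adjusted p = 0.00338). On each of the 6 arrays it was the lowest of the 5 probes, and the gap from the lowest to the highest Impact probe on an array ran from 1.27 to 2.64. All 5 probes list the same single transcript record, so the annotation does not say which of them reads the spliced Impact mRNA. Averaged over its probes, Impact had group means of 0.35 ± 0.13 with cycloheximide and 0.44 ± 0.16 with strontium (SD, n = 3 arrays each), a value that hides probes on both sides of 0.

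**Figure D2:**
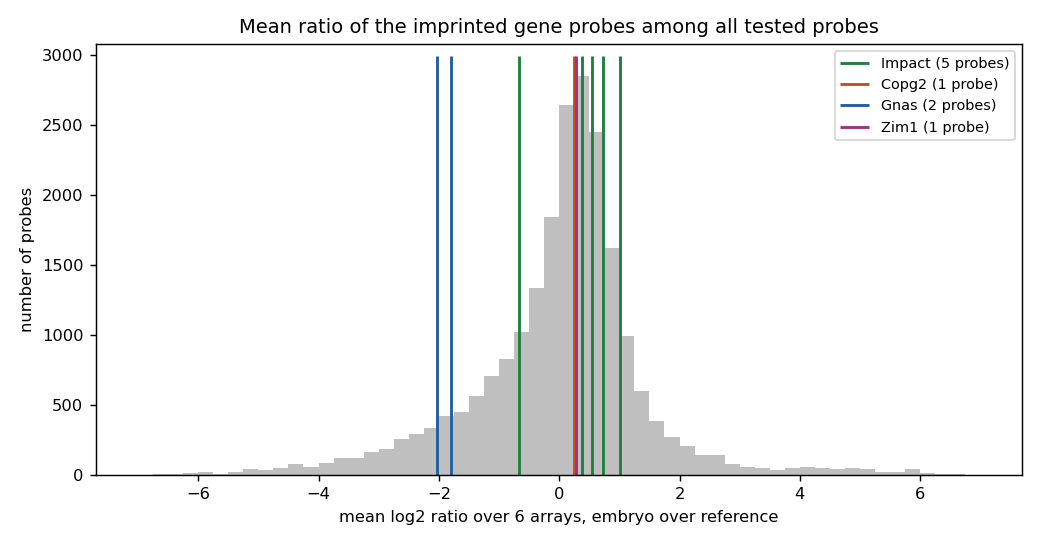
Number of probes (vertical axis) by mean log2 ratio over the 6 arrays (horizontal axis, bins of 0.25) for the 21921 tested probes, with coloured lines at the means of the probes of Impact, Copg2, Gnas and Zim1. Impact spreads from -0.67 to 1.00, Zim1 (0.28) and Copg2 (0.24) lie in the middle of the distribution, and the Gnas probes (-1.803 and -2.02) lie in its lower tail.

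Zim1, a zinc finger gene that neighbours the paternally expressed Peg3, is maternally expressed in the mouse embryo. Its single probe, 19417, was at 0.21, 0.19 and 0.26 after cycloheximide and at 0.48, 0.27 and 0.29 after strontium. It was above 0 on 6 of 6 arrays but by little, and its ratio was higher than that of 55.2% of all probes. The group means of 0.22 ± 0.04 and 0.35 ± 0.12 (SD, n = 3 arrays each) correspond to 1.16-fold and 1.27-fold. The test against 0 (limma adjusted p = 0.0195) did not hold with array medians subtracted (mean 0.11, limma adjusted p = 0.273), nor without array 1 or 2 of cycloheximide or array 1 of strontium (limma adjusted p from 0.0554 to 0.0621).

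Copg2 encodes the second form of the gamma subunit of coatomer, the COPI coat that buds vesicles from the Golgi. Its probe, 1552, was at -0.45, 0.25 and -0.26 after cycloheximide and at 0.37, 0.62 and 0.92 after strontium. All 3 strontium arrays were above 0, against 1 of 3 cycloheximide arrays, and the groups did not overlap. Over the 6 arrays the mean was 0.24, which did not pass against 0 (limma adjusted p = 0.142) and was higher than the ratio of 52.8% of all probes. The other form, Copg1, which is not imprinted, had group means of -0.50 ± 0.64 with cycloheximide and -0.31 ± 0.35 with strontium (SD, n = 3 arrays each), and the sources do not say whether the Copg2 probe can also bind it.

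Of the 4 genes Gnas was the farthest from the reference, and its probes lay below it on all arrays. Probe 5947 was at -2.25, -2.19 and -2.40 after cycloheximide and at -2.09, -1.75 and -1.46 after strontium. Probe 16031 was at -1.11, -1.35 and -2.14 after cycloheximide and at -1.98, -2.25 and -1.98 after strontium. The first was therefore 4.86-fold and 3.40-fold lower than the reference in the respective groups, and the second 2.89-fold and 4.203-fold lower.

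Against 0 the limma adjusted p was 2.59e-05 for probe 5947 and 0.000154 for probe 16031, and 8.35% and 10.02% of all probes had a lower ratio. The means over 6 arrays, -2.02 and -1.803, were close, and their ranges overlapped. In the order of mean ratios over the 9 probes, neighbours overlapped in their range over arrays at every step except one: the highest value of probe 16031 of Gnas (-1.11) lay below the lowest of Impact probe 19090 (-0.95). Ratios of different probes are set in this order as a description, since the reference level differs between genes.

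Between the activation groups, 0 of the 9 probes passed, and 0 of all probes did (0% of 21921). The lowest limma adjusted p over all probes was 0.365, and without adjustment 6.02% of them had a p under 0.05. Of the 9, 5 had a negative difference (cycloheximide minus strontium), against 56.7% of all probes, and 2 were at an unadjusted p under 0.05: Copg2 and Impact probe 6700. The groups did not overlap for 4 of the 9, all lower after cycloheximide (Impact 6700, Copg2, Gnas 5947 and Zim1), where 6.04% of all probes were lower without overlap and 11.8% did not overlap in either direction. These genes were chosen with earlier results of these arrays known, so the share carries no test. In this design an exact permutation test cannot give a p below 0.1. Any probe whose groups do not overlap has that p, so for these 4 it adds nothing to the lack of overlap.

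**Figure D3:**
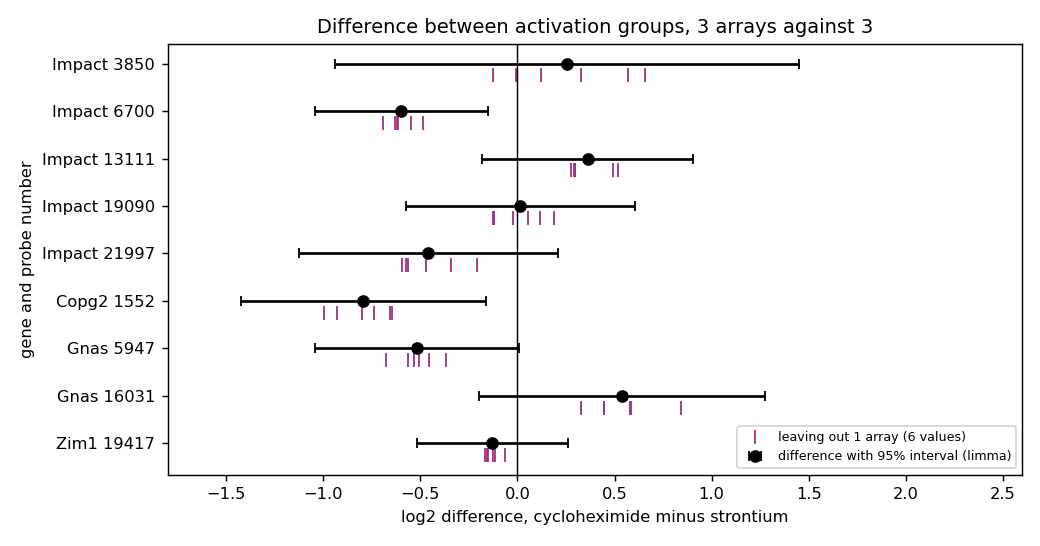
Log2 difference, cycloheximide minus strontium (horizontal axis), for each of the 9 probes (vertical axis), with the 95% interval from limma as a bar and the 6 values with 1 array left out as ticks below it. The intervals of Copg2 and of Impact probe 6700 lie below 0 before adjustment, the Gnas probes lie on opposite sides of 0, and the ticks of Impact probes 3850 and 19090 fall on both sides.

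The difference was largest for Copg2, at -0.79 (SE 0.26, 95% interval -1.43 to -0.16), or 0.577-fold, with a limma adjusted p of 0.806. It was negative with any 1 array left out, between -0.995 and -0.65, and was -0.74 without array 3 of cycloheximide. With array weights, where array 2 of cycloheximide counted by far the most, it was -0.34. The probes nearest to it in number had a median difference of -0.05, and Copg2 differed by -0.65 when the median of the nearest probe numbers was subtracted on each array.

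Impact probe 6700 differed by -0.60 (SE 0.18, 95% interval -1.04 to -0.15; limma adjusted p = 0.794). Probe 21997 differed in the same direction, by -0.46, and by -0.21 with the value of exactly 0 left out, but its groups overlapped. Probe 3850 differed by 0.26 (-0.13 without array 3 of cycloheximide), probe 13111 by 0.36 and probe 19090 by 0.01. Averaged over the 5 probes, Impact differed by -0.08 (SE 0.17; limma adjusted p = 0.919 over genes).

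The Gnas probes went apart by group. Probe 5947 was lower after cycloheximide by 0.52 on the log2 scale (difference -0.52, SE 0.21, limma adjusted p = 0.823) and probe 16031 differed by 0.54 (SE 0.30, limma adjusted p = 0.866), so their average differed by 0.01. Set against each other within an array, probe 5947 less probe 16031 was -1.14, -0.84 and -0.26 after cycloheximide and -0.11, 0.51 and 0.52 after strontium. These values did not overlap between groups, with means of -0.75 and 0.31. The exact two-sided permutation p was 0.1, the smallest possible, and 0.275 adjusted over the 11 pairs of probes of 1 gene compared (1 of Gnas, 10 of Impact). Of the Impact pairs, 3 also did not overlap, with the same p values: probe 6700 less probe 13111 differed between groups by -0.96, probe 6700 less probe 19090 by -0.61, and probe 13111 less probe 21997 by 0.82. The Gnas pair differed by -1.05. Without array 3 of cycloheximide, probe 16031 differed by 0.84 and without array 1 of cycloheximide by 0.33.

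Zim1 differed by -0.13 (SE 0.16, 95% interval -0.52 to 0.26; limma adjusted p = 0.888). Its groups were separated by a margin of the last decimal only, with 0.26 the highest after cycloheximide and 0.27 the lowest after strontium. Without array 1 of strontium the difference was -0.06.

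Other imprinted genes were read from lists drawn up by known parental expression. Of 34 genes listed as paternally expressed in at least some mouse tissues, 8 had a probe with 1 gene. Against the reference, on gene averages, 4 of the 8 passed above 0 and 1 below 0, where 39.3% and 26.3% of all 4742 genes passed. Those above were Impact, Snrpn, a spliceosomal protein gene, at 1.43 over 6 arrays, Smoc1, a secreted matrix protein, at 0.93, and Xist, the noncoding RNA of X inactivation, at 0.75. The gene below was Jade1, a chromatin reader, at -1.60. Sfmbt2 (0.42), Sgce (-0.15) and Mcts2 (-0.04) did not pass.

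For the difference between groups, 0 of the 8 passed in either direction. Of these, 7 lay below 0 and 1 (Mcts2, 0.17) above, with a median of -0.39, where 54.7% of all genes lay below 0 with a median of -0.03. Without array 1 of cycloheximide the median was -0.07, and without array 3 of cycloheximide -0.81, so its size rested on single arrays. Xist was at 0.16, 0.37 and 0.81 after cycloheximide and at 1.01, 0.89 and 1.29 after strontium, without overlap, and its probes differed by -1.14 and -0.10.

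**Figure D4:**
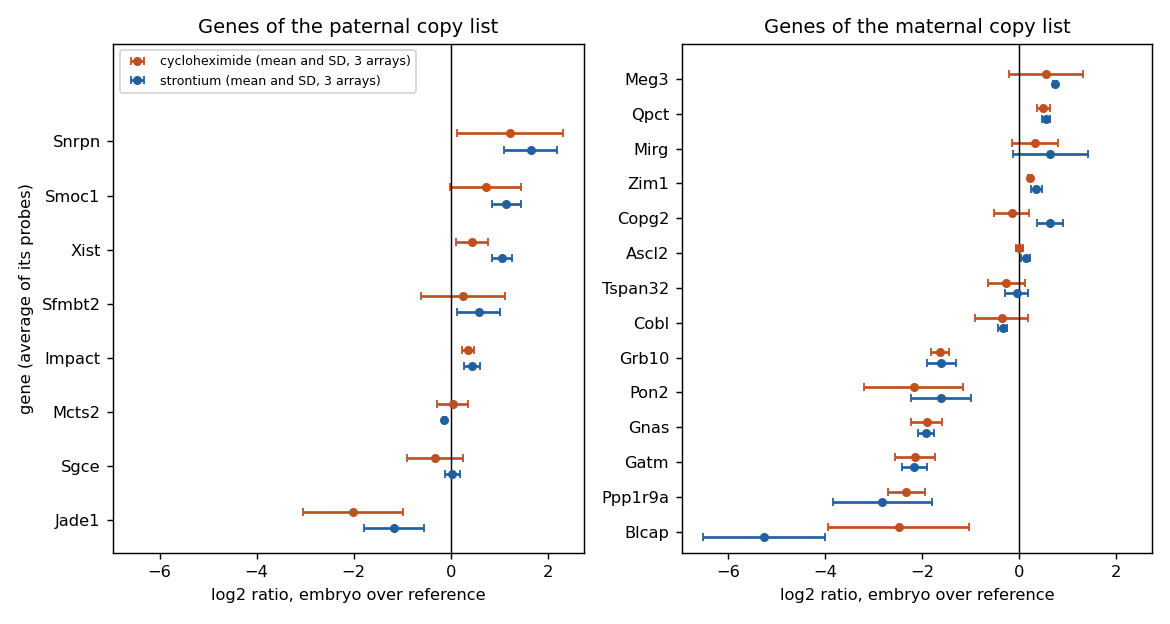
Log2 ratio of embryo over reference (horizontal axis) for the measured genes (vertical axis) of the list of paternally expressed genes (left, 8 genes) and of maternally expressed genes (right, 14 genes), as mean and SD of 3 arrays per group on the average of a gene's probes. Neither panel lies on a single side of 0: Snrpn and Smoc1 stand above the reference on the left, and Gnas, Gatm, Ppp1r9a and Blcap below it on the right.

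Of 39 genes listed as maternally expressed, 14 were measured, and Gnas, Zim1 and Copg2 are among them. Against the reference 3 passed above 0 (Meg3 at 0.64, Qpct at 0.52 and Zim1) and 6 below 0, of 14, where 39.3% and 26.3% of all genes passed, with a median over the list of -0.25 against 0.16 over all genes. Below the reference with Gnas were Grb10, an adaptor of growth factor receptors, at -1.62, Gatm, an enzyme of creatine synthesis, at -2.15, Pon2 at -1.89, Ppp1r9a at -2.58 and Blcap at -3.87. Between groups 0 of the 14 passed, and the median difference was -0.09 against -0.03 over all genes. Of the 14, 10 were negative and 4 positive, where 54.7% of all genes were negative. The list median per array ran from -0.48 to -0.43 after cycloheximide and from -0.32 to -0.11 after strontium, ranges that did not overlap. This lack of overlap was not tested, and the list was chosen with earlier results of these data known.

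Blcap, which has an imprinted transcript in brain, was at -1.85, -1.45 and -4.15 after cycloheximide and at -4.93, -4.21 and -6.64 after strontium. The last value is at the limit of the ratio, so the difference of 2.78 (SE 0.905, limma adjusted p = 0.732) is uncertain in size. The groups did not overlap, and array 3 of cycloheximide lay close to the nearest strontium array. The cluster neighbours Mest, Klf14, Peg3 and Usp29 and the antisense RNA of the Gnas locus had no probe with 1 gene and were not analysed here.

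The partners of the gene products were read in the same way, and 0 members of any of these lists passed between groups. Among 12 measured genes of the COPI coat and its regulators, the median difference was -0.17, and 8 were negative and 4 positive. Next to Copg2 the smallest unadjusted p belonged to Tmed2, a cargo receptor of COPI vesicles, which differed by 1.20. Copz2, the second form of the zeta subunit, differed by -0.82, and Copz1 by -0.19. Against the reference 7 of the 12 passed below 0 and 2 above (Arf1, the GTPase that recruits the coat, at 1.44, and Arfgap1 at 0.66), where 26.3% of all genes passed below and 39.3% above. The median of the list per array ran from -0.81 to -0.50 after cycloheximide and from -1.30 to -0.83 after strontium. These ranges did not overlap either, and they lay higher after cycloheximide although the median of the differences was negative. This too was not tested. For the lists of paternally expressed genes, cyclic AMP signalling, the GCN2 pathway and imprint factors, the ranges of the list medians overlapped between groups.

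Of 14 measured genes of Gs alpha and cyclic AMP signalling, 8 differed below 0 and 6 above, with a median of -0.14. Adenylyl cyclases, the enzymes that Gs alpha stimulates, were represented by Adcy5, which differed by -1.01, and Adcy2, which differed by 0.47. Against the reference 8 of the 14 passed above 0 and 4 below, where 39.3% and 26.3% of all genes passed. The median level of the list was 0.39. Gnas and the gamma subunit gene Gng12 (-3.50) were below the reference, while Prkaca, a catalytic subunit of protein kinase A, was at 2.73. Prkacb, the other catalytic subunit measured, was at -2.21. Of 9 genes of the GCN2 pathway, 5 differed above 0 and 4 below: Eif2ak4, which encodes GCN2 itself, differed by -0.80 (SE 0.53) and Eif2ak3, the kinase PERK, by 1.01 (SE 0.39). Impact was 1 of 2 genes of that list with a mean above 0 and the only one to pass above it, while 5 of the 9 passed below. Over all genes 39.3% passed above and 26.3% below.

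A list of KRAB zinc finger and imprint maintenance factors had 15 measured genes, among them general chromatin factors such as Mbd3 and Cbx3. Of these 15, 13 lay above 0 between groups and 2 below (Dppa3 and Cbx5), where 45.3% of all genes lay above 0. Their median was 0.29, and none of the 15 passed. Without array 1 of strontium the median was 0.14. Ctcf, an insulator protein, differed by 0.75 (0.38 and 1.12 for its probes), Cbx1 by 1.97 and Hells by 0.65. Dnmt1, the maintenance methyltransferase, was at -2.42 against the reference and Dnmt3b at 1.81.

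By Pearson correlation over the 6 arrays, with array medians subtracted and among genes whose SD over arrays was at least 0.3, the profile of Copg2 was most like those of Tfap2a (r = 0.953), Crk (0.935) and Sipa1l3 (0.923). For Impact these were Srsf1 (0.994), Rcan2 (0.974) and Pign (0.954), for Gnas Wwc2 (0.969), Nap1l2 (0.960) and Ulk2 (0.956), and for Zim1 Hspg2 (0.986), Csrnp1 (0.977) and Naf1 (0.976). The points are 6 arrays that share a reference and differ in spread, and 2877 or 2878 genes were searched for each, and 14 genes were above 0.9 for Impact, 7 for Copg2, 10 for Gnas and 21 for Zim1. The profiles of Zim1, Impact and Gnas varied by an SD of 0.10, 0.15 and 0.22 only, below the 0.3 asked of the genes compared. That of Copg2 varied by 0.52. The profiles of Impact and Gnas are averages over probes whose differences between groups had opposite signs, so the likeness is to the average and not to any 1 probe. No test was made of these values.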

How the data were processed

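The deposited table gives the authors' log10 ratios for 22132 probes, in 1 column for each array. The submitters' processing notes name Feature Extraction, Agilent's scanner software, without the version or the background and dye settings. The deposited log10 values run from -2 to 2. Here their sign was turned and they were scaled by 3.32, so that values are on the log2 scale with embryo in the numerator. Probes were named through the platform annotation of 2007: 6249 had 1 gene, 9389 several and 6494 none. Of the first, 6179 matched the RefSeq gene table by gene ID. Omitting 211 probes that were 0 throughout left 21921.

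Differences and levels against 0 were fitted per probe with limma 3.58.1 (lmFit, eBayes) in R 4.3.3, with Benjamini-Hochberg adjustment over all probes and a threshold of 0.05, without further normalization. Gene averages (4742 genes) were fitted alike. Exact permutation tests compared single probes. The fit was tested on simulated data. Python 3.11.15 with pandas 2.3.3 and matplotlib 3.10.9 prepared values and plots. All probes of the 4 genes are named. Of the lists, only some of the genes with extreme levels or the smallest p in each direction are named, picked with their values known. Grb10 and the markers given by name were likewise picked with their values known. The members and lists were chosen with earlier results of these data known. Alternatives covered centring, quantile normalization, unset and limited values, probe filters, array weights, the variance prior, a replicate block, gene averages and each array left out; the subtraction of the median of the nearest probe numbers was added after seeing the data. Depth is not a measure of arrays; their number, 3 per group, limits the precision.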

Additional observations from a re-analysis of the deposited data

How the results depend on the processing

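No probe of the 4 genes passed between groups under any alternative run. Over all probes the counts were 0 and 0 except with array weights (224 higher, 135 lower). These weights were 22.6 for array 2 of cycloheximide and from 0.156 to 1.03 for the others. The cycloheximide mean in that setting thus rested mostly on 1 array. The cause of these calls was not tested. On the reference comparison, 3 of the 5 probes above 0 remained counted with array medians subtracted or with the median of the nearest probe numbers subtracted; averaged per gene, 2 genes were above and 1 below. Over all features the counts were 2449 above and 1508 below with probes of 1 gene only, and 1865 and 1246 with gene averages, since fewer features were tested. Of 162 alternative values of the differences of single probes, 11 changed sign. With 1 array left out, Impact probe 3850 ranged from -0.13 to 0.66 (-0.13 without array 3 of cycloheximide and -0.006 without array 2 of strontium) and probe 19090 from -0.13 to 0.19 (negative without array 2 of either group or array 3 of strontium). Probe 19090 also gave -0.059 with quantile normalization and -0.039 with the nearest probe numbers subtracted. The gene average of Impact, -0.084, opposed probes 3850, 13111 and 19090, its level of 0.40 opposed that of probe 19090, and the Gnas average of 0.011 opposed probe 5947. Of 144 alternative levels, 7 no longer passed (Zim1 and Impact probe 6700) and 1 newly did (Copg2, 0.39 with array weights). Same-numbered arrays of the groups correlated in their deviations at 0.0561, 0.379 and 0.501, and differently numbered ones at -0.501 to 0.457. With 1 same-numbered pair that low and no label that ties the numbers to a shared batch, same-numbered arrays were not treated as pairs. The replicate block gave 0 calls, 2086 probes at an unadjusted p under 0.05 against 1319, and lowered the adjusted p of Copg2 to 0.519. Array 3 of cycloheximide left out gave 4242 such probes, each other array 748 to 1393. Signal over background was not analysed here.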
